A study of Sus scrofa with 20 samples.

Results

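Collagens are the main structural proteins of the extracellular matrix, and each collagen molecule is a trimer of chains that are encoded by separate genes. The collagen chain genes were taken as the genes of the count table whose pig Ensembl symbol has the form COL, a number, A and a number. This rule found 40 of the 31907 genes of the table, and 37 of them were among the 16275 genes that passed the filter on low counts. They were grouped by the kind of assembly that their proteins form into 11 fibrillar, 6 basement membrane, 3 network and 8 FACIT genes and 12 others. FACIT stands for fibril-associated collagens with interrupted triple helices.

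The study set liver against backfat, the subcutaneous fat of the back, in Nanchukmacdon, a Korean pig breed. Bulk RNA-seq was made from both tissues of boars, with 5 libraries per tissue. The paper's methods name 5 boars, so the libraries may form 5 pairs, which the main tests did not use. Whole-genome bisulfite libraries of the same tissues were not used here because their calls carry no genomic position. The labels give an age of 22 months, a wild-type designation and a normal disease state for both groups, which share breed and sex, while the study's methods give another average age. Libraries are named by tissue and by the animal number in their column name, and values of the 5 libraries of a tissue are given in the order 65, 67, 69, 71 and 72. Because whole tissue was sequenced, fewer cells of a type and less RNA per cell cannot be told apart, and p-values measure the spread between these 5 animals per tissue.

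Fibrillar collagens, chiefly types I and III, form the tensile fibrils of dermis, tendon, fascia and the septa of fat. FACIT collagens lie on the surface of such fibrils, type IV collagen forms the sheet of basement membranes around fat cells, vessels and nerves, and type VI collagen makes beaded filaments close to cells. Types XV and XVIII are proteoglycans of the basement membrane zone, and type XVIII, whose C-terminal part is endostatin, is known to be made by hepatocytes.

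The repeat that makes a chain a collagen can be read from its exons. In the triple helix glycine recurs every 3 residues, and in fibrillar genes many exons have a length of exactly 54 bases, which is 6 glycine triplets. Coding exons were counted in the longest RefSeq coding sequence of each gene on Sscrofa11.1, where 39 of the 40 members were matched by symbol. Exons of 54 bases numbered 21 to 33 in the 11 fibrillar genes with a median of 28, and 4 to 27 in the 8 FACIT genes with a median of 13.5. The 6 type IV genes had 1 to 3, the 11 matched genes of the other group had 1 to 4, and the 3 network genes had none. For each of 7 genes drawn from the fibrillar, FACIT, basement membrane and other groups, 1 such exon is printed. It is the first exon of 54 bases that opens in frame and has GG at the start of each of its 6 triplets. Since the exons were picked by this pattern, their likeness in it is not a result. The exons are those of COL1A1 (coding exon 8, chr12:26393098-26393151, minus strand), COL1A2 (coding exon 8, chr9:74184187-74184240, plus strand), COL3A1 (coding exon 6, chr15:93571887-93571940, plus strand), COL5A3 (coding exon 15, chr2:68858344-68858397, minus strand), COL9A3 (coding exon 5, chr17:62078270-62078323, plus strand), COL4A1 (coding exon 7, chr11:76915618-76915671, minus strand) and COL18A1 (coding exon 27, chr13:207972940-207972993, plus strand). Capitals mark the GG that opens each glycine codon.
COL1A1: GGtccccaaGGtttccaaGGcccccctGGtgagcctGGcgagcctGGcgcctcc
COL1A2: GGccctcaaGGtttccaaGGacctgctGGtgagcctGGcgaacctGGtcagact
COL3A1: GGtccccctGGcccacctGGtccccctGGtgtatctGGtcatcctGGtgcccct
COL5A3: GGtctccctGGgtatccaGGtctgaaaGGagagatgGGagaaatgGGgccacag
COL9A3: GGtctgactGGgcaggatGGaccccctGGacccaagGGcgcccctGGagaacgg
COL4A1: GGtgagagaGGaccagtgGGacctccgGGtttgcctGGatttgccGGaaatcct
COL18A1: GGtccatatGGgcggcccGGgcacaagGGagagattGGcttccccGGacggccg

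Total counts were between 45157114 and 61772737 per library in backfat and between 43820042 and 53768601 in liver. In all, 2 libraries stood apart from the rest of their tissue. Liver 67 held 44.5% of its counts in mitochondrial genes, against 6.38% to 20.2% in the other liver libraries, and its summed skeletal muscle markers were at 114 CPM (counts scaled to 1000000 per library), where the median of the liver libraries was 0.536. Backfat 69 held 2162 counts of ALB, the hepatocyte product albumin, where the other backfat libraries held 7 to 28. The tissue labels held against their markers. The 6 hepatocyte markers summed to between 16044 and 64704 CPM in liver and between 199 and 662 CPM in backfat, and the 6 adipocyte markers to between 11278 and 17953 CPM in backfat and between 8.83 and 17.8 CPM in liver, where LEP was at 0 in 4 of the 5 libraries. The lowest hepatocyte sum of liver, 16044 CPM, was that of liver 67, and the other liver libraries were at 49858 to 64704 CPM. Red cell markers were also highest in liver 67 among the liver libraries, at 1239 CPM against 61.7 to 278 CPM. Values without these 2 libraries are given beside the results where they changed a call or moved a value by over 1.5 times.

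Collagen transcripts took a large part of the backfat libraries and a small part of the liver libraries. The 40 members held 11.05%, 9.80%, 7.27%, 9.66% and 11.8% of all counts in backfat and 0.211%, 0.240%, 0.201%, 0.233% and 0.266% in liver. The means were 9.91% ± 1.7 and 0.230% ± 0.026 (SD, n = 5), and the lowest backfat library was above the highest liver library (exact permutation test, two-sided, p = 0.00794, the smallest that 5 against 5 libraries can give). Fibroblast markers moved the same way, with all 6 genes of the list summing to 2301 to 3742 CPM in backfat and 45.2 to 93.6 CPM in liver, and their part in the result was not tested.

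Calls were made by edgeR's quasi-likelihood test and needed both an adjusted p no higher than 0.05 and a change of 2 or more on the log2 scale, with positive values for higher in backfat. Of the 37 members tested, 24 were called higher in backfat, 3 were called higher in liver and 10 were not called. The members called are 64.9% in the backfat direction and 8.11% in the liver direction, where 11.1% and 11.2% of all 16275 genes were called. The median log2 fold change was 3.20 over the members and 0.000 over all genes tested. In 24 tested members every backfat library lay above every liver library, and in 3 the order was the opposite, against 22.9% and 19.7% of all genes. The plot of fold changes shows the members in order of the change.

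**Figure D1:**
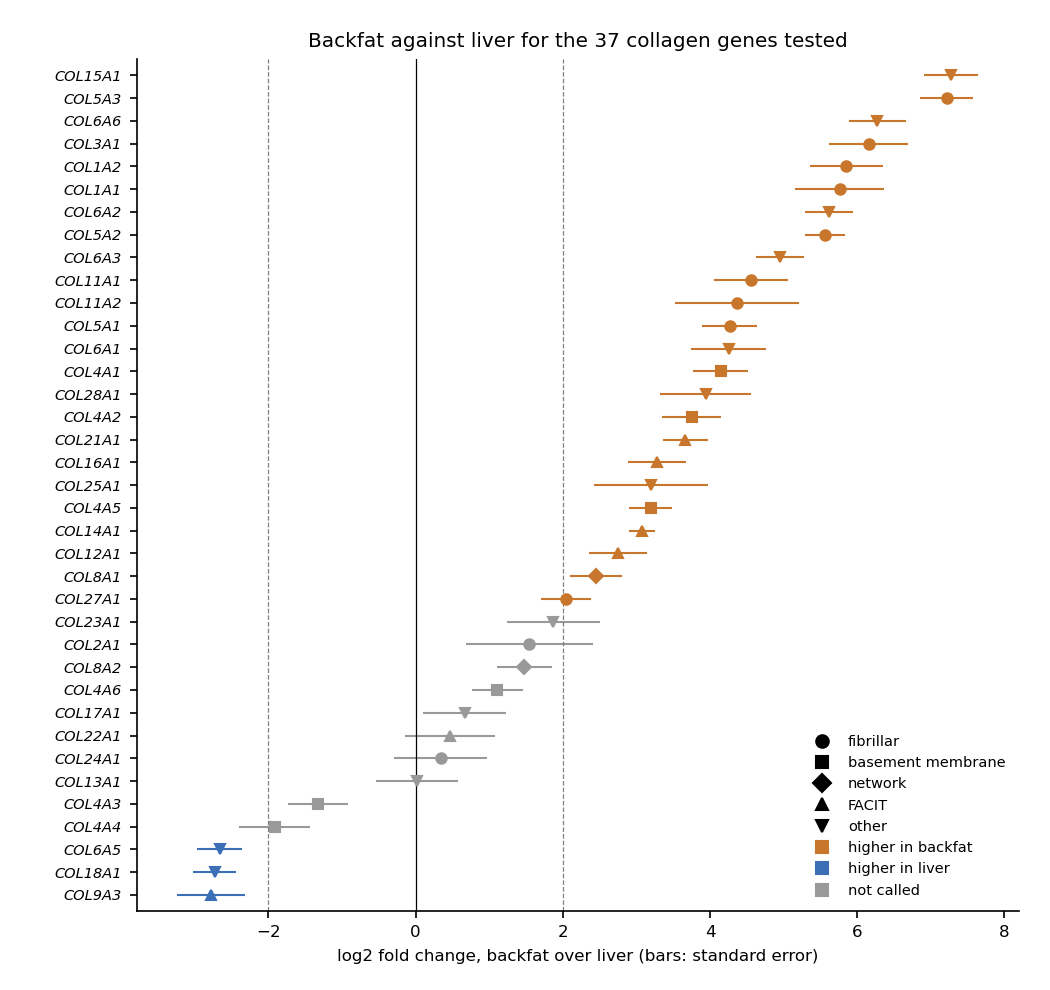
Log2 fold change of backfat over liver (x axis, bars are standard errors) for each of the 37 collagen chain genes tested (y axis), with the class as the symbol, the call as the colour and dashed lines at a log2 fold change of 2 in either direction. The 24 genes called higher in backfat range from 2.04 (COL27A1) to 7.28 (COL15A1), and the 3 called higher in liver (COL6A5, COL18A1 and COL9A3) lie between -2.66 and -2.78.

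Among the fibrillar genes, 9 of 11 were called higher in backfat and none higher in liver, with a median log2 fold change of 4.56. COL3A1, the single chain of type III collagen, was at 24218, 28624, 21474, 26684 and 34995 CPM after TMM scaling (TMM-CPM) in backfat and at 401, 427, 370, 336 and 371 TMM-CPM in liver. The lowest backfat library was far above the highest liver library, and the log2 fold change was 6.16 (SE 0.54, adjusted p = 1.06e-06). COL1A1, which gives both α1 chains of the type I trimer, was at 23142, 16263, 13040, 22928 and 30290 TMM-CPM in backfat and at 213, 557, 203, 518 and 457 TMM-CPM in liver. Its groups did not overlap either, and liver 65 and liver 69 were the lowest of the liver libraries. The log2 fold change of COL1A1 was 5.76 (SE 0.61, adjusted p = 5.44e-06), and that of COL1A2, the α2 chain of the same trimer, was 5.85 (SE 0.50, adjusted p = 8.7e-07).

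The steepest change among the fibrillar genes was that of COL5A3, a chain of the type V collagen that lies inside type I fibrils. COL5A3 was at 557, 691, 509, 682 and 513 TMM-CPM in backfat and at 2.89, 6.89, 2.46, 4.08 and 3.53 TMM-CPM in liver. Its backfat libraries spanned 1.36 times, and its log2 fold change was 7.22 (SE 0.36, adjusted p = 1.38e-08). The other type V chains, COL5A1 and COL5A2, changed by 4.26 and 5.56 on the log2 scale. COL11A1 and COL11A2, the type XI chains best known from cartilage, were much lower in level and were called at 4.56 and 4.37. The groups of COL11A2 overlapped, with backfat 67 at 0.641 and liver 67 at 0.729 TMM-CPM, its backfat libraries spanned 18.6 times, and its log2 fold change was 5.22 without liver 67 and 5.33 without liver 67 and backfat 69. The 5 cartilage markers summed to 2.23 to 9.61 CPM in backfat and 10.9 to 25.7 CPM in liver and were mixed, since SOX9 held 8 to 125 counts in backfat and 246 to 356 in liver while HAPLN1 held 28 to 77 in backfat and 0 to 12 in liver. Their part in the type XI values was not tested.

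Calls at the low end of the fibrillar group depended on single libraries. COL27A1 was called at a log2 fold change of 2.04, and fell under the fold threshold at 1.90 without backfat 71, at 1.93 without liver 65 and at 1.84 without liver 69. COL2A1, the cartilage collagen, was not called at 1.55 (SE 0.86, adjusted p = 0.146). Liver 67 held 1.84 TMM-CPM of COL2A1, where the other liver libraries held 0.0849 to 0.271, and without liver 67 the gene was called at 3.05 (adjusted p = 0.00394), or at 3.17 without liver 67 and backfat 69. COL24A1 was at a log2 fold change of 0.34 (adjusted p = 0.668) with overlapping groups.

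Of the 6 type IV genes, COL4A1, COL4A2 and COL4A5 were called higher in backfat and none was called higher in liver. COL4A1 and COL4A2 encode the chains of the common basement membrane trimer. COL4A1 was at 2912, 3364, 2828, 2560 and 2531 TMM-CPM in backfat and at 101, 192, 89.0, 226 and 195 TMM-CPM in liver. COL4A2 was at 2890, 3091, 2532, 2104 and 2210 TMM-CPM in backfat and at 107, 250, 94.5, 273 and 228 TMM-CPM in liver. In both genes the tissues were far apart and liver 65 and liver 69 were again the lowest libraries. The log2 fold changes were 4.14 for COL4A1 (SE 0.37, adjusted p = 1.43e-06) and 3.75 for COL4A2 (SE 0.40, adjusted p = 5.77e-06). The endothelial markers, of which 4 of 5 were matched, summed to 784 to 1568 CPM in backfat and 77.8 to 177 CPM in liver, and their part in this difference was not tested.

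COL4A3 and COL4A4, which with COL4A5 form the trimer of kidney glomeruli and lung alveoli, lay on the liver side. Their log2 fold changes were -1.33 (SE 0.41, adjusted p = 0.0149) for COL4A3 and -1.91 (SE 0.49, adjusted p = 0.00497) for COL4A4, short of the fold threshold. Without liver 67 and backfat 69 COL4A3 was at -0.79 (adjusted p = 0.0538). COL4A4 was called higher in liver at -2.10 without liver 65, -2.16 without liver 69 and -2.04 without liver 72. COL4A6, the X-linked partner of COL4A5, was at 1.11 (adjusted p = 0.0148) and was not called, and was at 0.62 without liver 67 and backfat 69. Within the type IV level per length, COL4A1 and COL4A2 together held 99.5% ± 0.15 in backfat and 96.5% ± 0.98 in liver (SD, n = 5). COL4A3 and COL4A4 held 0.0419% ± 0.010 and 1.95% ± 0.89.

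The type IV genes lie in 3 pairs that are read in opposite directions, COL4A1 with COL4A2 on chromosome 11, COL4A3 with COL4A4 on chromosome 15 and COL4A5 with COL4A6 on chromosome X. In RefSeq the first and second pairs overlap at their ends, while COL4A5 and COL4A6 lie 207.9 kb apart. The gap between the start of COL4A1 and the nearest downstream COL4A2 transcript start is 133 bases long in RefSeq (Sscrofa11.1, chr11:76997410-76997542, printed on the plus strand). A further COL4A2 transcript start lies inside COL4A1, so the annotated COL4A2 gene also runs through the gap. The gap is shown because it separates the neighbouring starts of these genes, both of which were called higher in backfat. Capitals mark the matches to CCAAT and to GGGCGG on either strand.
COL4A1/COL4A2: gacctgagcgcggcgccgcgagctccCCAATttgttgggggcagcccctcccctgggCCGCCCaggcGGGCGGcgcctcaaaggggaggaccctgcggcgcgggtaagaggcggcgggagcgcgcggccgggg
The gap holds 1 CCAAT, 2 GGGCGG and no TATAAA, has 18 CpG sites and a GC content of 78.95%. Among 19570 windows of the same length before RefSeq gene starts, 21.6% held CCAAT, 39.1% held GGGCGG and 5.26% held TATAAA, on either strand. Since the read counting set no strand, reads from the overlapping ends of COL4A1 and COL4A2, and of COL4A3 and COL4A4, cannot be assigned by strand.

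The FACIT group held 4 members called higher in backfat, 1 called higher in liver and 1 not called among the 6 tested. COL14A1, which binds fibrils of type I collagen, was at 305, 295, 341, 261 and 332 TMM-CPM in backfat and at 42.9, 30.4, 34.8, 37.2 and 35.9 TMM-CPM in liver. The libraries spanned 1.30 times in backfat and 1.41 times in liver, and the log2 fold change was 3.08 (SE 0.18, adjusted p = 3.46e-08). COL16A1 was at 175, 185, 158, 221 and 339 TMM-CPM in backfat and at 10.1, 28.6, 10.5, 35.3 and 26.6 TMM-CPM in liver. Backfat 72 was the highest library of COL16A1, the groups did not overlap and the log2 fold change was 3.28 (SE 0.39, adjusted p = 1.65e-05). COL21A1 had the largest change of the class, at 24.2, 28.3, 33.1, 48.1 and 47.5 TMM-CPM in backfat and at 2.39, 1.57, 3.02, 4.52 and 2.79 TMM-CPM in liver. Its log2 fold change was 3.67 (SE 0.31, adjusted p = 7.47e-07), and COL12A1 was called at 2.75.

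COL9A3, a chain of type IX collagen that is best known from cartilage, was higher in liver. It was at 1.70, 1.24, 2.59, 1.89 and 3.05 TMM-CPM in backfat and at 6.43, 19.3, 5.16, 28.8 and 12.2 TMM-CPM in liver. Each liver library was above each backfat library, although the liver values themselves spanned 5.58 times. The log2 fold change was -2.78 (SE 0.47, adjusted p = 2.74e-04), and with scaling by library size alone it was -1.98, short of the fold threshold. The partner chain COL9A1 was not tested, with at most 20 counts in any library, and COL19A1, with at most 27, was not tested either. COL22A1 was at 0.47 (adjusted p = 0.534).

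The network group is small and low in level. COL8A1, the type VIII chain of vessel walls and of Descemet's membrane, was called at a log2 fold change of 2.45 (SE 0.35, adjusted p = 7.33e-05), with 14.0, 28.7, 22.2, 13.6 and 13.4 TMM-CPM in backfat and 1.52, 3.62, 2.29, 4.99 and 4.39 TMM-CPM in liver. COL8A2, its partner, was at 0.947, 0.610, 1.40, 0.757 and 0.944 TMM-CPM in backfat and at 0.524, 0.324, 0.340, 0.253 and 0.217 TMM-CPM in liver. Backfat was above liver in every library of both genes, by a margin for COL8A2 that was not enough for a call (log2 fold change 1.48, SE 0.37, adjusted p = 0.00458). COL8A2 was called at 2.15 with scaling by library size alone. COL10A1, the collagen of hypertrophic cartilage, had at most 17 counts in any library and was not tested.

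The remaining 12 genes held both the largest rise and 2 of the 3 genes that were higher in liver. COL15A1 and COL18A1 encode the paired proteoglycan collagens of the basement membrane zone and moved in opposite directions. COL15A1 was at 840, 711, 713, 927 and 655 TMM-CPM in backfat and at 3.99, 4.05, 2.70, 7.61 and 6.48 TMM-CPM in liver, with a log2 fold change of 7.28 (SE 0.37, adjusted p = 1.59e-08), the largest of all members. COL18A1 was at 135, 148, 289, 143 and 177 TMM-CPM in backfat and at 1006, 1003, 1107, 1292 and 1497 TMM-CPM in liver, with a log2 fold change of -2.73 (SE 0.29, adjusted p = 6.51e-06). All liver libraries were close together for COL18A1, and the highest backfat library was backfat 69, the one with the most ALB counts. Backfat 69 held 17174 counts of COL18A1, where the other backfat libraries held 7951 to 11926. Its 2162 ALB counts compare with 303743 to 1718223 in the liver libraries. The part of hepatocyte RNA in its COL18A1 value was not tested. Without liver 67 and backfat 69 the log2 fold change of COL18A1 stayed called. Per length, the mean of the ratio of COL15A1 to COL18A1 was 6.54 ± 2.3 in backfat and 0.00571 ± 0.0017 in liver (SD, n = 5).

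Type VI collagen is built from COL6A1, COL6A2 and a further long chain, which is COL6A3, COL6A5 or COL6A6. COL6A1 was at 2306, 2344, 2232, 2776 and 2811 TMM-CPM in backfat and at 53.6, 258, 46.5, 172 and 123.2 TMM-CPM in liver, with a log2 fold change of 4.25 (SE 0.51, adjusted p = 1.6e-05). COL6A2 was at 1968, 1849, 1161, 2201 and 2174 TMM-CPM in backfat and at 44.5, 29.9, 39.5, 32.4 and 45.0 TMM-CPM in liver, with a log2 fold change of 5.61 (SE 0.33, adjusted p = 4.02e-08). Both were far higher in backfat, but COL6A1 varied over 5.54 times among the liver libraries and COL6A2 over 1.51 times. Of the long chains, COL6A3 and COL6A6 were called higher in backfat at 4.95 and 6.27.

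COL6A5, the remaining long chain, was higher in liver. It was at 1.91, 2.06, 1.78, 0.919 and 1.96 TMM-CPM in backfat and at 12.5, 14.2, 6.37, 13.1 and 8.52 TMM-CPM in liver. The groups did not overlap, and the log2 fold change was -2.66 (SE 0.30, adjusted p = 1.03e-05), or -1.92 with scaling by library size alone. COL6A5 and COL6A6 are neighbours on the minus strand of chromosome 13, 43.57 kb apart in RefSeq, so adjacent genes of the same collagen were called in opposite directions. Elsewhere in the group COL28A1 and COL25A1 were called at 3.94 and 3.20, both at low levels, and COL28A1 was at 4.90 without liver 67 and at 4.87 without liver 67 and backfat 69, while COL17A1 was at 0.67 (adjusted p = 0.34) and COL13A1 at 0.02 (adjusted p = 0.983). COL23A1 was not called at 1.87 (adjusted p = 0.0247). It passed the threshold without backfat 65, was called at 2.87 without liver 67, at 2.49 without liver 67 and backfat 69 together, at 2.24 with the animal number as a block, at 2.26 in limma-voom and at 2.64 with scaling by library size alone.

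**Figure D2:**
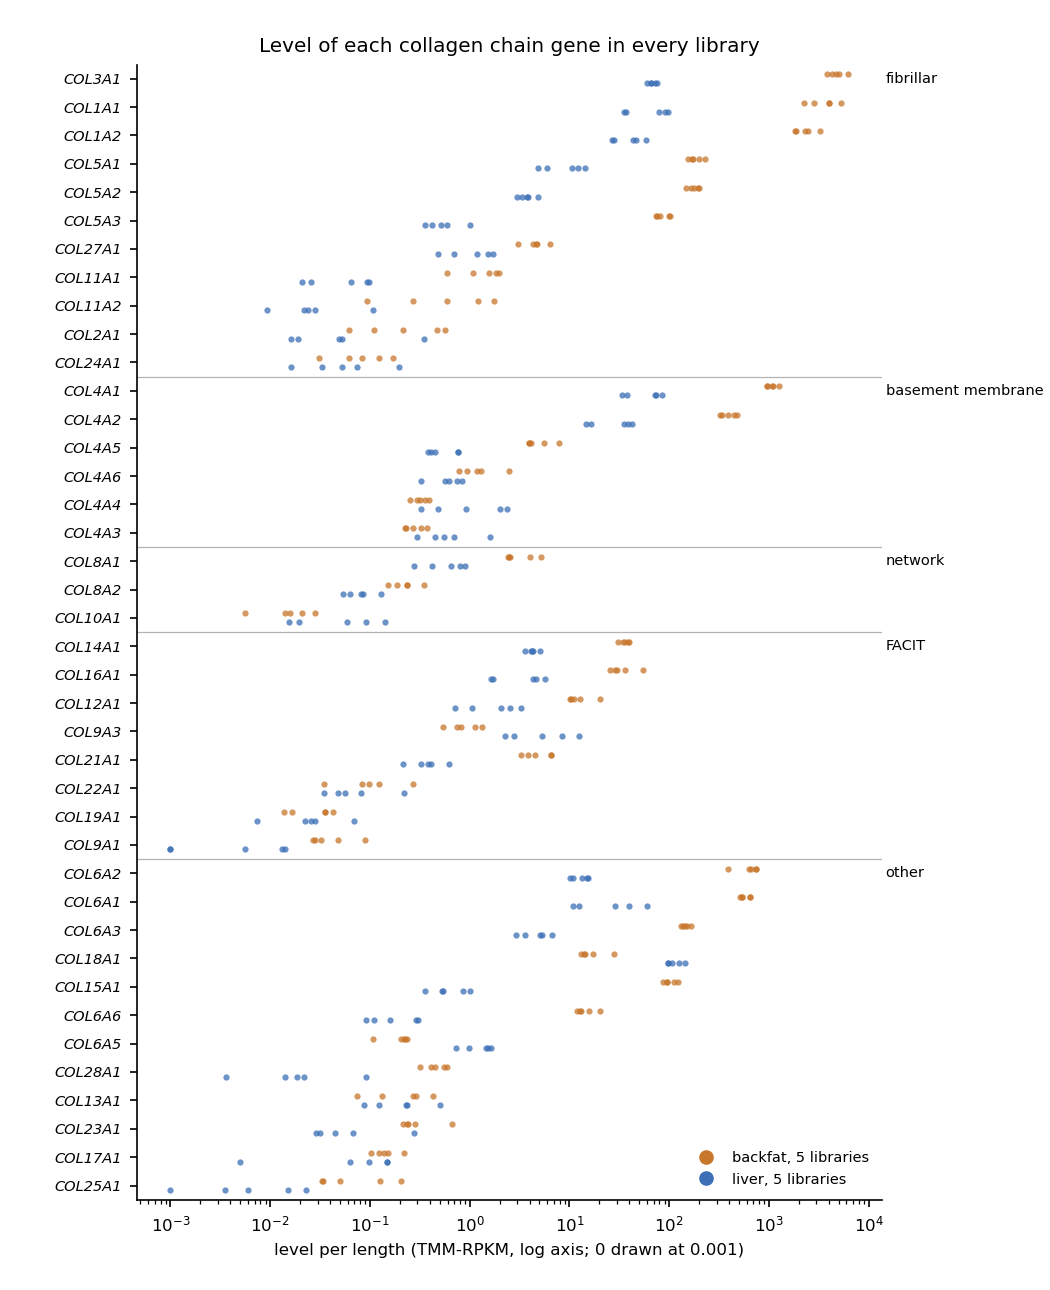
Level per length of each of the 40 collagen chain genes (y axis, grouped by class and ordered by mean level) in each of the 10 libraries, in TMM-RPKM (TMM-CPM per kb of exon) on a log axis, with values of 0 drawn at 0.001. COL3A1 and COL1A1 are the highest genes of backfat, COL18A1 is the highest of liver, and COL6A5, COL18A1 and COL9A3 are the genes with all liver points to the right of all backfat points.

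Levels of different genes were compared per length, as TMM-CPM per kb of exon (TMM-RPKM). In backfat the order was led by COL3A1 at 4841 ± 911 TMM-RPKM, COL1A1 at 3672 ± 1167 and COL1A2 at 2344 ± 582 (SD, n = 5). Together these 3 made up 75.5% of the collagen level, and COL3A1 ranked 7 among all genes of the table. The difference between COL3A1 and COL1A1 was within their spread, since the ratio of COL3A1 to COL1A1 ran from 1.07 to 1.80 over the backfat libraries. In liver the order was led by COL18A1, at 114 TMM-RPKM and 24.5% of the collagen level, followed by COL3A1 at 67.9, COL1A1 at 67.7, COL4A1 at 60.5 and COL1A2 at 40.6. COL3A1 and COL1A1 could not be ordered in liver, where their ratio ran from 0.665 to 1.93. The exon length that the table gives for COL4A1 is 2651 bases and that for COL6A2 is 2952, shorter than their RefSeq coding sequences of 5001 and 3072 bases, so their levels per length depend on the gene model.

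The make-up of the collagen transcripts differed between the tissues in all 5 classes. Fibrillar genes held 78.1%, 75.7%, 75.4%, 78.9% and 83.2% of the summed level per length in backfat and 42.3%, 43.0%, 41.4%, 39.9% and 39.2% in liver, a difference of the means of 37.1 percentage points. Basement membrane genes held 10.6% ± 2.7 in backfat and 19.3% ± 3.3 in liver, FACIT genes 0.628% ± 0.078 and 3.45% ± 0.73, network genes 0.0264% ± 0.012 and 0.161% ± 0.022, and the others 10.5% ± 0.92 and 36.0% ± 3.7 (SD, n = 5). In none of the 5 classes did the libraries of the tissues overlap (exact permutation test, two-sided, p = 0.00794 and adjusted p = 0.00794 over the 5 classes). The shares add up to 100% and are not independent of each other. The sizes depend on the exon lengths: with the longest RefSeq transcript, or with no correction for length, the basement membrane difference was -5.06 or -4.71 (adjusted p = 0.0238) in place of -8.67 percentage points, and that of the others was -35.3 or -38.6 in place of -25.5 (exact permutation tests). All classes were higher in backfat in summed level, by 59.1 times for fibrillar, 15.8 for basement membrane, 4.73 for network, 5.42 for FACIT and 9.06 for the others, and by 30.8 times over all members.

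A single gene carried most of the difference in the group of others. COL18A1 held 28.3%, 17.8%, 32.0%, 21.8% and 27.1% of the collagen level in liver and 0.0909%, 0.106%, 0.252%, 0.0950% and 0.0936% in backfat. Types I and III together held 75.1% ± 3.4 of the level in backfat and 37.9% ± 1.6 in liver (SD, n = 5).

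**Figure D3:**
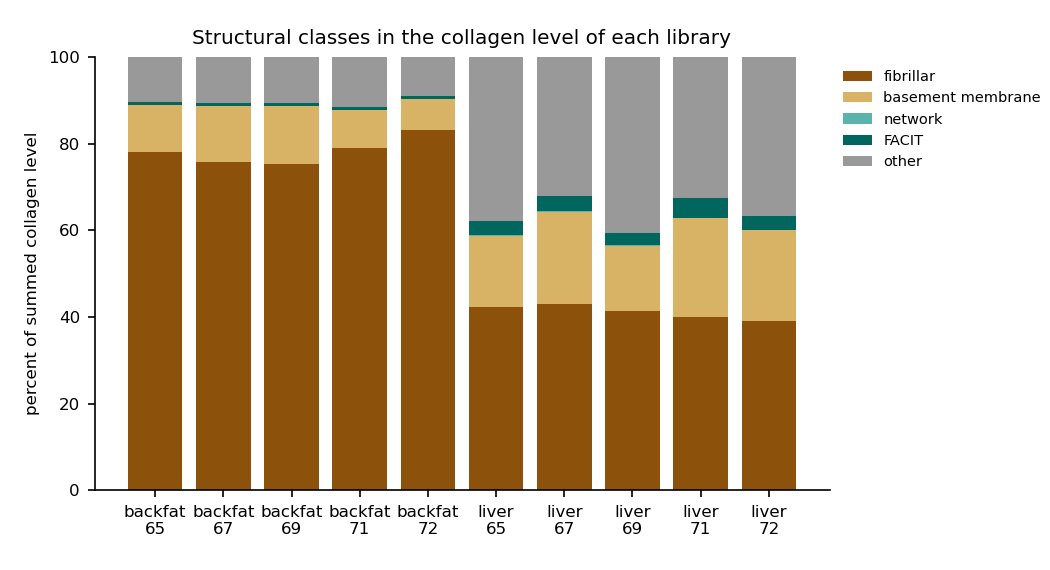
Share of each structural class in the summed collagen level per length (y axis, percent) in each of the 10 libraries (x axis), as stacked bars. Fibrillar genes hold 75.4% to 83.2% in backfat and 39.2% to 43.0% in liver, and the others, mostly COL18A1 in liver, hold 9.02% to 11.6% and 32.0% to 40.6%.

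Chains that enter the same molecule were compared as log2 ratios of their levels per length, in 7 pairs. A ratio of partners inside a library does not depend on the scaling of libraries. The ratio itself depends on the exon lengths, but its tissue difference does not. The ratio of COL1A1 to COL1A2 was 0.62 ± 0.21 in backfat and 0.67 ± 0.32 in liver (SD, n = 5), a difference of -0.06 (exact permutation test, adjusted p = 0.77 over the 7 pairs). While the levels of these genes differed 54.2-fold and 57.8-fold, no difference in their ratio was detected.

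The ratio of 3 other pairs differed between the tissues with no overlap of libraries. COL4A1 over COL4A2 was 1.44 ± 0.10 in backfat and 1.08 ± 0.13 in liver (exact permutation test, p = 0.00794, adjusted p = 0.0185). The size of this ratio rests on the short exon length of COL4A1. Before division by length the means of COL4A1 and COL4A2 were 2839 and 2565 TMM-CPM in backfat and 160 and 190 TMM-CPM in liver. COL4A5 over COL4A6 was 1.80, 2.07, 1.68, 2.34 and 2.04 in backfat and -0.87, 1.23, -0.13, -0.56 and -0.47 in liver, a difference of 2.15 (exact permutation test, p = 0.00794, adjusted p = 0.0185). Liver 67 was above the other liver libraries for this pair, and without liver 67 and backfat 69 the difference was 2.57 (exact permutation test, adjusted p = 0.0667). COL5A1 over COL5A2 was 0.07, -0.05, 0.04, 0.02 and 0.20 in backfat, almost the same in each library, and 0.64, 1.13, 0.40, 2.27 and 1.87 in liver, a difference of -1.20 (exact permutation test, p = 0.00794, adjusted p = 0.0185). The calls of these 3 ratios were lost when any backfat library was left out (exact permutation test, adjusted p = 0.0556), at differences of 0.332 to 0.400, 2.06 to 2.22 and -1.24 to -1.18. They were also lost without liver 67 and backfat 69 (exact permutation test, adjusted p = 0.0667) and in an exact sign-flip test paired by animal number (adjusted p = 0.146). Both of these losses follow from the number of libraries. All 3 ratios were at the smallest unadjusted p of each test, which is 0.0286 without both libraries (exact permutation test) and 0.0625 for 5 pairs (exact sign-flip test).

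The other 3 pairs were not called. COL6A1 over COL6A2 was -0.32, -0.21, 0.39, -0.22 and -0.18 in backfat and -0.28, 2.56, -0.31, 1.86 and 0.90 in liver. Liver 65 and liver 69 thus lay among the backfat libraries and the other liver libraries above them (difference -1.05, exact permutation test, p = 0.151, adjusted p = 0.244). COL6A3 over COL6A1 differed by 0.47 (exact permutation test, p = 0.175, adjusted p = 0.244), or by 0.18 without liver 67 and backfat 69, and COL4A3 over COL4A4 by 0.42 (exact permutation test, p = 0.246, adjusted p = 0.287). A further pair, COL8A1 with COL8A2, was left out because it held under 10 counts of a chain in some library.

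**Figure D4:**
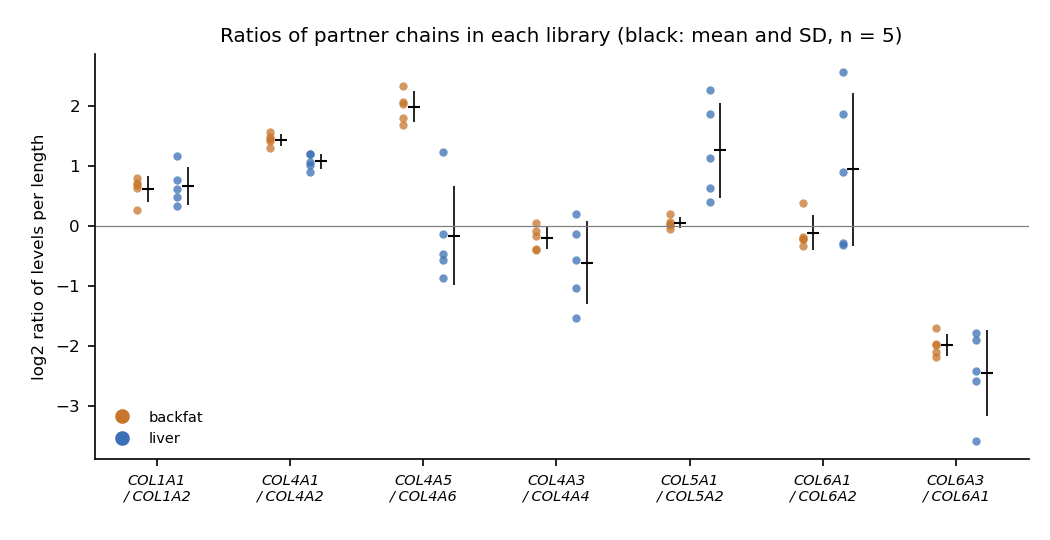
Log2 ratio of levels per length (y axis) for 7 pairs of chains (x axis) in each backfat and liver library, with the mean and SD of each tissue in black. COL1A1 over COL1A2 overlaps between the tissues at means of 0.62 and 0.67, COL4A1 over COL4A2, COL4A5 over COL4A6 and COL5A1 over COL5A2 do not overlap, and COL6A1 over COL6A2 spans -0.31 to 2.56 within liver.

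Several members varied more among the liver libraries than among the backfat libraries. Of the 19 members with a mean of at least 5 TMM-CPM in liver, 14 had a highest library at least 2 times the lowest, against 46% of the 10283 genes at that level. For 12 of the 19 the lowest libraries were liver 65 and liver 69, which was so for 22.4% of those genes. The 12 were COL1A1, COL1A2, COL4A1, COL4A2, COL4A4, COL5A1, COL6A1, COL6A3, COL9A3, COL12A1, COL16A1 and COL27A1, with COL4A4 the widest at 7.27 times. COL3A1, COL5A2, COL6A2, COL14A1 and COL18A1 varied by 1.27, 1.63, 1.51, 1.41 and 1.49 times, less than 2. Liver 65 and liver 69 were also the libraries with the lowest mitochondrial share of counts, at 6.97% and 6.38% against 44.5%, 20.2% and 11.9% in liver 67, 71 and 72, and the part of that share in the spread was not tested. Among the 24 members at this level in backfat, 10 reached 2 times, against 21.2% of 10211 genes, and the widest was COL11A2 at 18.6 times. In liver, some partners of the same molecule (COL5A1 and COL5A2, COL6A1 and COL6A2) fell on different sides of the division at 2 times. COL1A1 and COL3A1, chains of different molecules, did so too. The partners COL1A1 and COL1A2, at 2.74 and 2.22 times, and COL4A1 and COL4A2, at 2.54 and 2.89 times, fell on the same side. All of these spreads depend on the TMM scaling, in which a higher factor lowers the values of a library. The factors were 0.916 and 0.876 in liver 65 and liver 69, and 0.722, 0.649 and 0.760 in liver 67, 71 and 72. Spreads and sides of the division with scaling by library size alone were not computed and can differ.

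**Figure D5:**
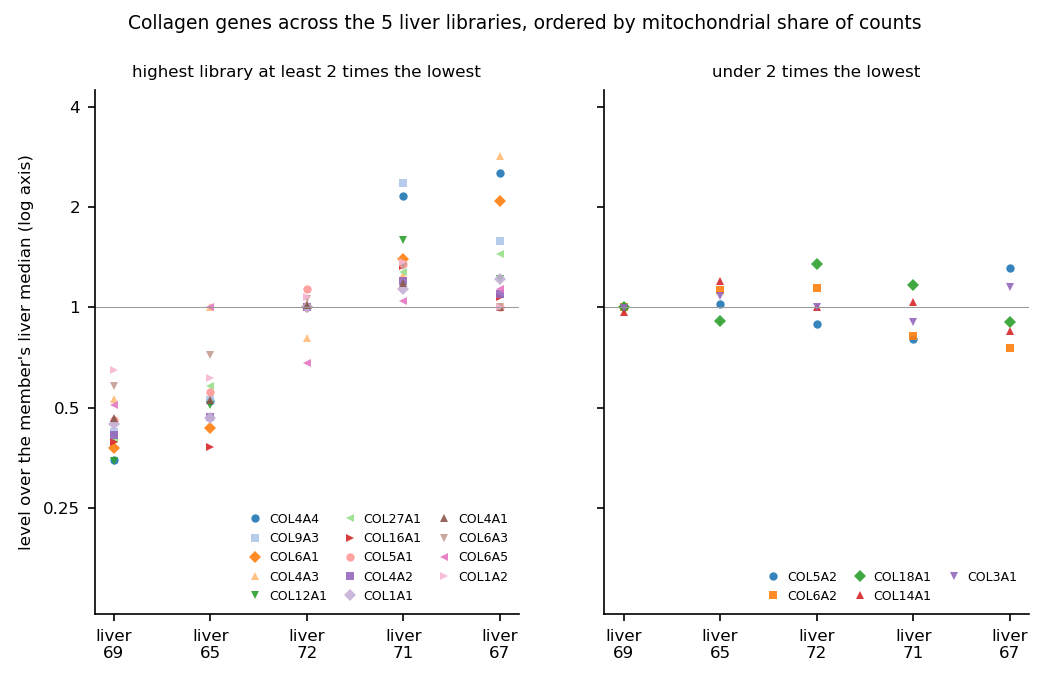
Level of each of 19 collagen chain genes in the 5 liver libraries, divided by the gene's liver median (y axis, log axis), with libraries ordered by their mitochondrial share of counts from 6.38% to 44.5% (x axis). In the 14 genes of the left panel the highest library was at least 2 times the lowest, and most have their lowest values in liver 69 and liver 65, while the 5 genes of the right panel, COL3A1 and COL18A1 among them, varied by less than 2 times.

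Collagen chains are hydroxylated, folded, trimmed and cross-linked by a dedicated set of proteins. Of 34 such genes, 32 had a unique identifier and all of these were tested. Among them 11 were called higher in backfat, none was called higher in liver and 21 were not called, with a median log2 fold change of 1.10, where 11.1% and 11.2% of all genes were called in these directions. The largest changes were those of LOXL2, a cross-linking lysyl oxidase, at 6.70 (SE 0.35, adjusted p = 2.02e-08), TLL1, a protease that removes the C-terminal propeptide, at 4.17 (SE 0.52, adjusted p = 2.31e-05), and P4HA3, a catalytic subunit of prolyl 4-hydroxylase, at 4.02 (SE 0.55, adjusted p = 5.06e-05). LOXL2 was at 216 to 340 TMM-CPM in backfat and 1.57 to 4.15 TMM-CPM in liver. The other 8 called were ADAMTS2, LOX, P3H3, FKBP10, PCOLCE, the collagen chaperone SERPINH1, P3H4 and COLGALT2, at log2 fold changes between 2.24 and 3.74. The lowest of them, COLGALT2, was not called at 1.36 without backfat 69 or at 1.92 without liver 67 and backfat 69, and ADAMTS14, at 1.80, was called at 2.09 without liver 71. P4HB, the protein disulfide isomerase that is also the other subunit of prolyl 4-hydroxylase, had a log2 fold change of -1.92 (adjusted p = 3.65e-04), short of the fold threshold, and was called higher in liver at -2.17 without liver 67 and at -2.16 without liver 67 and backfat 69.

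Of 12 collagen receptor genes, 11 had a unique identifier and 10 were tested. DDR2, a receptor tyrosine kinase of fibrillar collagens, was called higher in backfat at 3.59 (SE 0.25, adjusted p = 1.58e-07), MRC2, an endocytic receptor of collagen fragments, at 3.57 (SE 0.41, adjusted p = 1.05e-05), and ADGRG1, a receptor of type III collagen, at 2.35 (SE 0.27, adjusted p = 1.1e-05). These are 3 of 10 in the backfat direction and 0 of 10 in the liver direction, where 11.1% and 11.2% of all genes were called, and 5 were higher in backfat with scaling by library size alone. The median log2 fold change was 0.88. Among the integrin genes ITGB1, at 1.58, and ITGA1, ITGA2, ITGA10 and ITGA11, at -0.15 to 1.30, were not called. ADGRG6, a receptor of type IV collagen, had a log2 fold change of -1.87 (adjusted p = 0.00996) and was called higher in liver without each of backfat 67, backfat 69, liver 67, liver 71 and liver 72 in turn, at -2.02 to -2.13. Without liver 67 and backfat 69 together it was called higher in liver at -2.26.

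Summed markers of the other cell types given here, which could carry collagen, were higher in backfat or overlapped between the tissues. The cartilage markers, given above as a mixed list, went the other way, at 2.23 to 9.61 CPM in backfat and 10.9 to 25.7 CPM in liver. The 6 hepatic stellate cell markers summed to 186 to 463 CPM in backfat and 119 to 196 CPM in liver, but the list is mixed. LRAT and HAND2 were at 0 to 15 counts in backfat and at 117 to 890 in liver. RELN was at 221 to 631 and 871 to 2150 counts, and COLEC11 at 3 to 37 and 1561 to 4034. RGS5 was higher in backfat, at 7865 to 18550 counts against 415 to 1584 in liver. NGFR overlapped, at 805 to 5003 and 1054 to 1929 counts. The 5 smooth muscle markers summed to 420 to 692 CPM in backfat and 112 to 250 CPM in liver. Skeletal muscle markers, of which 3 of 6 were matched, ran from 11.7 to 573 CPM in backfat and 0.246 to 114 CPM in liver. Schwann cell markers, of which 3 of 4 were matched, ran from 7.40 to 58.0 CPM in backfat and 2.18 to 5.36 CPM in liver, with the highest value in backfat 69. In that library COL4A5 and COL4A6 were also the highest of the backfat libraries, at 66.7 and 15.3 TMM-CPM against 33.0 to 46.8 and 4.90 to 8.21 in the others. The 2 matched keratinocyte markers were at 7.46 to 9.44 CPM in backfat and 5.61 to 9.87 CPM in liver. The 2 matched red cell markers were at 131 to 572 CPM and 61.7 to 1239 CPM, and the single matched mesothelium marker, WT1, was at most 0.598 and 0.614 CPM. The part of these cells in the collagen values was not tested.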

How the data were processed

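RNA was isolated from liver and backfat, and poly(A) libraries were sequenced on an Illumina NovaSeq. Per the paper's methods and the file headers, the authors checked reads with FastQC, trimmed them with Trimmomatic, aligned pairs to Sscrofa11.1 with HISAT2 and counted fragments over exons with featureCounts 2.0.1 (Ensembl release 99, no strand setting). The deposited values are raw counts per gene, with the exon length of each gene. No column was left unused for want of a sample. Columns were assigned to a tissue by name, and to a boar by the number in the name only. The bisulfite files, which hold calls by read position, were not used.

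The test was edgeR 4.0.16 under R 4.3.3 (filterByExpr, TMM, quasi-likelihood test with tissue as the only term, Benjamini-Hochberg over 16275 genes). Adjusted p-values of genes come from it, and standard errors were taken from the fold change and the F statistic. Level per length is the TMM-scaled CPM per kb of exon. Marker sums are CPM of all counts. Class shares, chain ratios (at least 10 counts of both chains in every library) and the collagen share of counts were compared by exact permutation of the 10 libraries (252 arrangements, two-sided). Same-numbered libraries of the tissues deviated together weakly (r = 0.238, 0.107, 0.0490, 0.165 and 0.0984 for 65, 67, 69, 71 and 72, over 16275 genes). For 65, 67, 71 and 72 the same-numbered liver library was the best match among the liver libraries, and for 69 it was liver 72 (r = 0.131). A fit with the number as a block was an alternative. The others were DESeq2 1.42.0, limma 3.58.1 (voom), DESeq2's size factors, library size alone, removal of mitochondrial genes, other filters on low counts, other gene lengths or none for the class shares, and leaving out each library. Leaving out liver 67 and backfat 69 together was chosen after seeing the data. The fits were tested on simulated data.

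The members, gene lists, marker lists and tests were chosen with earlier results of these data known. Values in every library are given for the 2 highest members of each class by mean level per length, the member with the largest called change of the class in either direction and any member called higher in liver, and of the 2 pathway lists the 3 called genes that changed most in either direction and any called higher in liver are named. Other members named by a sentence were chosen after their values were seen. Symbols were matched to RefSeq for positions and sequences, and plots were drawn with matplotlib 3.10.9 under Python 3.11.15. Counting error is small at this depth for the leading members and large for those with few counts.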

Additional observations from a re-analysis of the deposited data

Results flagged for a closer look

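In 100 groups of 5 libraries, a library was looked for whose gap to its nearest neighbour, divided by the range, was above Dixon's critical value. It was found in 10. For independent normal values chance does this in about 1 of 20 groups. Most values here are unlogged TMM-CPM, many from few counts, and the groups share the same 10 libraries. The rate by chance in these data is therefore not known. In liver 67, COL2A1 (1.84 TMM-CPM, others 0.0849 to 0.271), COL11A2 (0.729, others 0.0637 to 0.190), COL22A1 (1.38, others 0.217 to 0.510), COL23A1 (1.65, others 0.175 to 0.411) and COL28A1 (0.81, others 0.0316 to 0.191) were above the other liver libraries, all at low levels. The mitochondrial share and the skeletal muscle, smooth muscle, cartilage and red cell markers of liver 67 were also the highest of the tissue. Its hepatocyte markers were the lowest of the tissue. The part of these differences in the collagen values was not tested.

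In backfat 69, COL18A1 was at 289 TMM-CPM (others 135 to 177) and COL23A1 at 4.02 (others 1.29 to 1.69), and the log2 ratio of COL6A1 to COL6A2 was 0.393 (others -0.32 to -0.18). The hepatocyte, hepatic stellate cell, smooth muscle, cartilage and Schwann cell markers and the mesothelium marker WT1 were all highest in that backfat library. Their part was not tested. COL12A1 was at 247 TMM-CPM in backfat 72 (others 122.9 to 153.4), and COL6A5 was at 0.919 TMM-CPM in backfat 71, below the others (1.78 to 2.06).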

How the results depend on the processing

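The number of members called higher in backfat was 24, and between 20 and 27 under the alternatives. It was 25 in DESeq2, limma-voom and without the filter, 20 of the members with at least 10 counts in every library, and 26 without liver 67 and backfat 69. Members called higher in liver numbered 3 or 4, except with library size alone, where 1 member was called higher in liver and 5 receptors higher in backfat. That setting moved the median of all genes to 0.71 on the log2 scale. DESeq2 without a filter moved that median to -0.17.

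With the animal number as a block, 25 members were higher in backfat, COL23A1 being added, and 3 higher in liver, and no other call of a member changed. Paired by number, the exact sign-flip test cannot go below p = 0.0625, so the differences of FACIT (-2.83), basement membrane (-8.67), fibrillar (37.1), network (-0.134) and other share (-25.5), of collagen percent of counts (9.68) and of COL4A1 over COL4A2 (0.364), COL4A5 over COL4A6 (2.15) and COL5A1 over COL5A2 (-1.20) did not pass in the pairing. Without both libraries these 3 ratios differed by 0.320, 2.57 and -1.23 (exact permutation test, adjusted p = 0.0667). The smallest unadjusted p of that exact permutation test is 0.0286, which all 3 reached. With single libraries left out they ranged from 0.321 to 0.4001, 1.97 to 2.49 and -1.42 to -0.953 (adjusted p at most 0.0556).

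Values near 0 changed sign. COL13A1 was at -0.031 with DESeq2's size factors and with mitochondrial genes removed, -0.011 in DESeq2, -0.021 in limma-voom, -0.069 without both libraries and -0.30 to 0.46 with single libraries left out. COL22A1 ranged from -0.048 (without backfat 69) to 1.09, and COL1A1 over COL1A2 from -0.139 to 0.0678, with 0.157 without both libraries. With single libraries left out, members called numbered 23 to 26 in backfat and 3 to 4 in liver. In liver, 0 to 1 receptors (1 also without both libraries, ADGRG6) and 0 to 1 synthesis genes (1 also without both, P4HB) were called. The causes were not tested.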
